A study of Sus scrofa with 4 samples.

Results

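The 17-beta hydroxysteroid dehydrogenases are enzymes named for oxidising or reducing steroids at carbon 17, although several act mainly on other lipids. The 7 members described here are HSD17B3, HSD17B4, HSD17B7, HSD17B8, HSD17B10, HSD17B11 and HSD17B12. They were chosen with earlier results of these data known and were found among the features by gene symbol. Each symbol matched 1 feature, which makes 7 of the 31908 features counted in pig testis. The symbols HSD17B1, HSD17B2 and HSD17B6 were also present and are given for comparison.

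In the mammalian testis, androgens are made from cholesterol chiefly in Leydig cells, which lie between the seminiferous tubules, while Sertoli cells line the tubules and nurse the germ cells. HSD17B3 carries out the final step of testosterone synthesis, the reduction of androstenedione to testosterone, and in the fetal mouse testis that step is known to take place in Sertoli cells. The other members are described here by their roles in lipid or mitochondrial metabolism. HSD17B4 is the multifunctional enzyme of peroxisomal beta oxidation, HSD17B7 reduces a keto group late in cholesterol synthesis, and HSD17B8 takes part in mitochondrial fatty acid synthesis. HSD17B10 is a mitochondrial enzyme of isoleucine breakdown that is also a subunit of mitochondrial RNase P, HSD17B11 is a lipid droplet protein, and HSD17B12 is the ketoacyl-CoA reductase of very long chain fatty acid elongation.

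Testis cells of pigs (Sus scrofa) aged 7, 30, 60 and 90 days were profiled by droplet single-cell RNA sequencing of 3′ ends, with 1 library per age. The labels name the tissue and the age of each library; no strain, treatment or number of animals is given in the sources used here. The 4 libraries held 69602 barcodes and from 45717373 to 96133720 unique molecular identifiers (UMIs, 1 per captured RNA molecule) each, and 49439 cells were used after filters, with median depths between 2433 and 4994 UMIs per cell. Any pair of libraries shared 78 to 115 barcodes. Because there was 1 library per age, age and library cannot be told apart and ages were not tested; Sertoli-like and Leydig-like cells, which all 4 libraries held, were also compared in 1 test over the libraries. The 95% intervals below are exact and reflect counting alone, not variation between animals. A level is the counts summed over all cells of a class in a library, as counts per 1000000 UMIs of that class (CPM), and levels are compared within a gene, never between genes, since 3′ counts are not scaled to length. A gene was called higher or lower where the 2 levels differed at least 1.5-fold, the interval of their ratio left out 1 and both sides together held at least 10 counts.

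Classes were rebuilt from clusters and marker genes, with the 7 members kept out of both, and are named Sertoli-like, Leydig-like and so on. The Sertoli-like class held 6351, 5707, 2911 and 2311 cells at 7, 30, 60 and 90 days, and the Leydig-like class held 432, 580, 72 and 283. The summed level of 9 Sertoli markers was 8477, 7404, 5759 and 3121 CPM in Sertoli-like cells at the 4 ages, against 1997, 1932, 842 and 1137 CPM in Leydig-like cells. At 7, 30 and 90 days most of the latter came from CITED1, a transcriptional cofactor listed as a Sertoli marker, at 1302, 1572, 360 and 713 CPM in Leydig-like cells and 417, 649, 512 and 355 CPM in Sertoli-like cells, so that marker went against its list at 7, 30 and 90 days. The summed level of 7 Leydig markers was 68493, 66922, 20852 and 34640 CPM in Leydig-like cells and 758, 900, 330 and 129 CPM in Sertoli-like cells. SULT1E1 was at 0 in Leydig-like cells at every age, FSHR at 60 days, and INHBB and DHH at 90 days. Different clusters held most Sertoli-like cells at each age: cluster 0 had 77.03% of them at 7 days, with cluster 11, led by cell cycle genes, at 19.4%; cluster 1 had 85.1% at 30 days, cluster 5 had 89.0% at 60 days and cluster 7 had 99.7% at 90 days. All Leydig-like cells were in cluster 13.

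By gene ID, the members were HSD17B3 (ENSSSCG00000010937), HSD17B4 (ENSSSCG00000028431), HSD17B7 (ENSSSCG00000006337), HSD17B8 (ENSSSCG00000001476), HSD17B10 (ENSSSCG00000012327), HSD17B11 (ENSSSCG00000009225) and HSD17B12 (ENSSSCG00000021739). In RefSeq's gene table for Sscrofa11.1, the build named in the submitters' processing notes, HSD17B3 spans chr10:25822913-25866871. HSD17B4 spans chr2:123313445-123401386, HSD17B7 chr4:87720747-87743037 and HSD17B8 chr7:25247577-25249786. HSD17B10 spans chrX:46218540-46220942 and overlaps RIBC1, and HSD17B12 spans chr2:18461487-18611761 and overlaps LOC102168147. Reads of overlapping genes could have been split between them by the authors' counting.

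HSD17B3 was a transcript of Sertoli-like cells at every age. Its level in Leydig-like cells was not above that in T or NK-like cells, lymphocytes that should lack it. At 7 and 30 days, though, HSD17B3 in Leydig-like cells was above its level in the deeper spermatogonia-like cells. In Sertoli-like cells of the 7-day library it stood at 851.7 CPM (interval 843 to 861; 35239 counts), followed by 789.2 CPM (778 to 800; 20524 counts), 644 CPM (632 to 656; 10643 counts) and 463.4 CPM (452 to 475; 6503 counts) in the 30-, 60- and 90-day libraries. In Leydig-like cells it stood at 31.5 CPM (26.7 to 36.9; 151 counts), 23.5 CPM (18.6 to 29.3; 79 counts), 24.7 CPM (9.92 to 50.8; 7 counts) and 27.1 CPM (17.9 to 39.5; 27 counts). The lowest Sertoli-like library was thus above the highest Leydig-like one at any age. The ratio of Sertoli-like to Leydig-like cells of the same library was 27.0-fold, 33.5-fold, 26.1-fold and 17.1-fold in the same order of ages. On the log2 scale this was 4.76 (4.53 to 4.998), 5.07 (4.75 to 5.41), 4.71 (3.66 to 6.02) and 4.10 (3.55 to 4.70). Over the 4 libraries, with the library as a block, edgeR's quasi-likelihood test gave a log2 ratio of 4.47 ± 0.24 (SE, n = 4 libraries; Benjamini-Hochberg adjusted p = 2.2e-05 over 13363 genes), with HSD17B3 higher in 4 of 4 libraries. That test takes the ages as replicates, so its error holds how the ratio of Sertoli-like to Leydig-like cells differed between ages. Differences in level that both classes share are taken up by the block. Nothing says how many animals the libraries stand for.

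HSD17B3 was called higher in Sertoli-like cells at every age under each of the 11 other settings tried, but the size of the ratio moved with the treatment of doublets and the clustering. With no doublets removed, the log2 ratio was 3.60, 3.28, 2.18 and 3.18 at the 4 ages. With Scrublet's automatic threshold it was 4.11 at 7 days, 2.36 at 60 days and 3.51 at 90 days. At 60 days it was also lower when the clustering was finer (2.18 at resolution 2) or made on that library alone (1.92). In those 4 settings 172 to 220 cells of that library were named Leydig-like, in place of 72, and the 60-day library also held an unnamed cluster of 110 cells (cluster 25) with both Leydig and Sertoli markers. The part of such cells in the ratio was not tested.

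**Figure D1:**
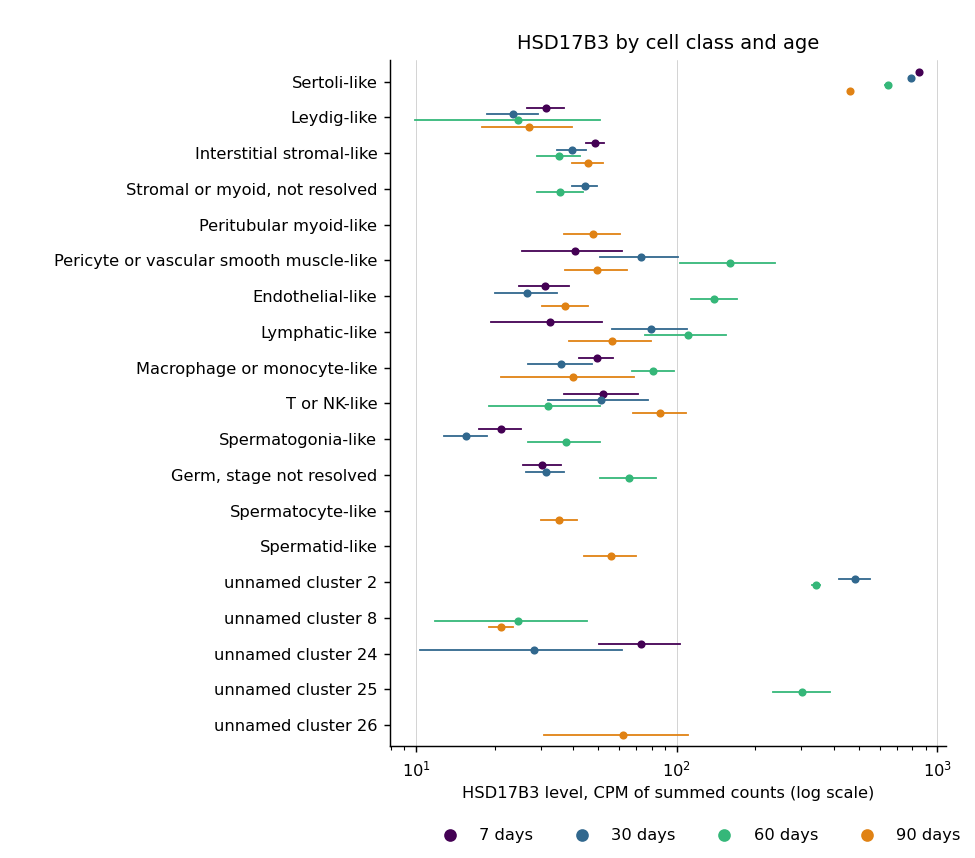
HSD17B3 level in each class with at least 50 cells (rows), as CPM of summed counts on a log scale; points are libraries coloured by age and bars are exact 95% Poisson intervals. Sertoli-like cells sit between 463.4 and 851.7 CPM, above every other class of the same library, and the unnamed clusters 2 and 25 lie between them and the rest.

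Sertoli-like cells held 95.9, 94.0, 73.9 and 84.5% of all HSD17B3 UMIs of the cells used at 7, 30, 60 and 90 days, while they held 53.2, 43.5, 43.5 and 28.1% of all UMIs. Leydig-like cells held 0.411, 0.362, 0.0486 and 0.351% of the HSD17B3 UMIs. At 60 days the unnamed cluster 2 held 3045 of the 14405 HSD17B3 UMIs of the cells used, beside 10643 in Sertoli-like cells. Among the other named classes, the lowest level was in spermatogonia-like cells at 7 and 30 days, at 21.1 and 15.5 CPM, and in Leydig-like cells at 60 and 90 days. The highest was in T or NK-like cells at 7 and 90 days (52.1 and 86.2 CPM), in lymphatic-like cells at 30 days (79.9 CPM) and in pericyte or vascular smooth muscle-like cells at 60 days (161 CPM). HSD17B3 was still higher in Sertoli-like cells than in that highest class, by 4.03 (3.58 to 4.52), 3.30 (2.85 to 3.80), 2.004 (1.43 to 2.65) and 2.43 (2.10 to 2.77) on the log2 scale at the 4 ages. At 60 days that class and endothelial-like cells (139 CPM) had 24.9 and 21.6% of the Sertoli-like level, beside medians of 36.3 and 23.1% for the Sertoli markers in them. Below Sertoli-like cells, most neighbours in the order of classes did not differ beyond counting error.

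Free RNA in the droplets gives UMIs in cells that do not make a transcript, so T or NK-like cells were taken as the reference for background; they were shallower than Leydig-like cells, with median depths of 1260 to 2761 against 3405 to 9802 UMIs. The Leydig-like level lay below theirs, by 0.73 (0.18 to 1.24), 1.12 (0.37 to 1.82) and 1.67 (1.02 to 2.36) on the log2 scale in the libraries of 7, 30 and 90 days. At 60 days the log2 ratio of Leydig-like to T or NK-like cells was −0.38, with an interval from −1.88 to 0.95 that includes 0. Expressed as a share of the Sertoli-like level, HSD17B3 in Leydig-like cells was at 3.70, 2.98, 3.83 and 5.85%. The Sertoli markers with at least 50 CPM in Sertoli-like cells had a median of 4.04, 5.95, 9.40 and 21.7% there, and 5 of 8, 5 of 7, 6 of 6 and 6 of 6 of them stood above HSD17B3. Against the deeper spermatogonia-like cells, Leydig-like cells were higher by 0.58 (0.22 to 0.94) and 0.60 (0.16 to 1.03) at 7 and 30 days, and at 60 days the log2 ratio was −0.60 (−2.01 to 0.57). With 10% free RNA subtracted, no HSD17B3 counts remained in Leydig-like cells at 7, 30 and 60 days. Some remained at 90 days, where the log2 ratio of Sertoli-like to Leydig-like cells was 5.26. The 10% was set, not estimated.

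**Figure D2:**
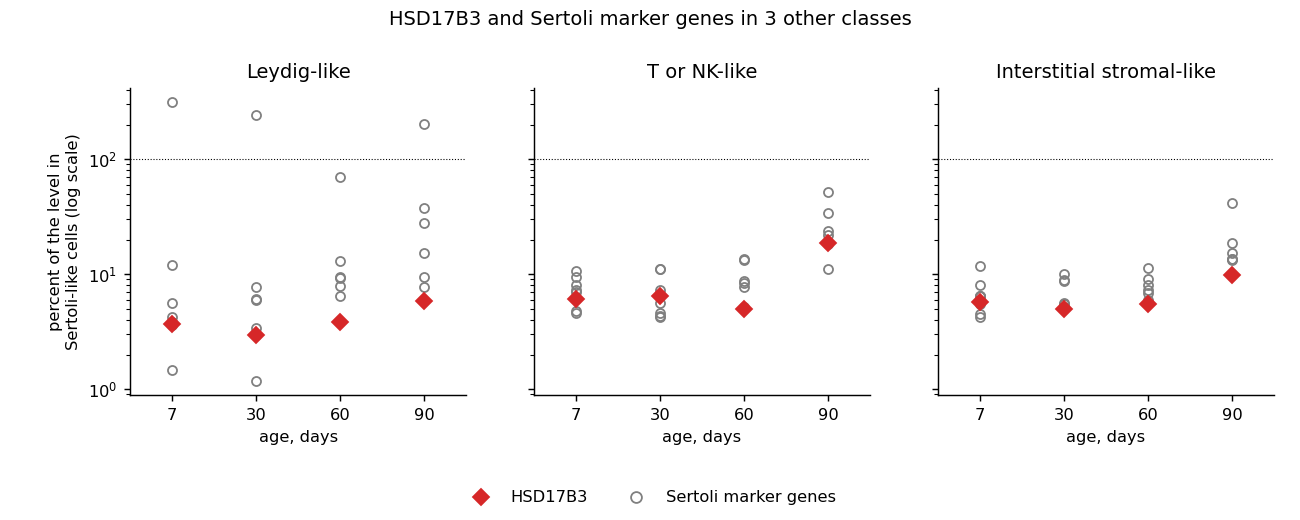
HSD17B3 (diamonds) and the Sertoli marker genes with at least 50 CPM in Sertoli-like cells (circles), each as a percent of its own level in Sertoli-like cells of the same library (log scale), in Leydig-like, T or NK-like and interstitial stromal-like cells at 4 ages. HSD17B3 lies between 2.98 and 5.85% in Leydig-like cells, and the circles above the dotted line at 100% are CITED1.

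Counted per cell, 96.8, 91.8, 90.3 and 70.7% of Sertoli-like cells had at least 1 HSD17B3 UMI in the 4 libraries by age, at median depths of 5513, 3684, 5359 and 5077 UMIs. With every cell thinned to 2000 UMIs, which left out 123, 360, 325 and 754 shallower cells, the shares were 80.5% (exact Clopper-Pearson interval 79.5 to 81.4), 78.6% (77.5 to 79.7), 73.4% (71.7 to 75.1) and 61.5% (59.1 to 64.0). In Leydig-like cells the unthinned shares were 20.4, 11.03, 8.33 and 9.19%, and the thinned ones 6.22% (4.10 to 8.98), 3.16% (1.89 to 4.95), 8.06% (2.67 to 17.8) and 5.19% (2.86 to 8.55). Thinned T or NK-like cells, of which 159, 46, 73 and 49 were deep enough, gave 10.1% (5.86 to 15.8), 6.52% (1.37 to 17.9), 4.11% (0.856 to 11.5) and 10.2% (3.40 to 22.2). The intervals of the 2 classes overlapped at every age.

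HSD17B3 in Sertoli-like cells was lower at each later age, and the order from 7 to 60 days was the same inside clusters 0, 1 and 11. Between 7 and 90 days its level differed 1.84-fold, a log2 ratio of −0.88 (−0.92 to −0.84). The steps between neighbouring ages were −0.11, −0.29 and −0.47, none of them past 1.5-fold alone. In cluster 0 the level was 896, 775 and 604 CPM at 7, 30 and 60 days, and in cluster 11 it was 714, 645 and 475 CPM. In cluster 1 it was 958, 798 and 644 CPM at the same ages. The step from 60 to 90 days could not be followed inside a cluster, since cluster 7 held nearly all Sertoli-like cells at 90 days and 2 at 60 days. The median log2 ratio of all genes compared in Sertoli-like cells between 90 and 7 days was 0.46, and TMM scaling, which centres the bulk of genes, put HSD17B3 at −1.43. In Leydig-like cells the ratio of 90 to 7 days was −0.22 (−0.86 to 0.38). That interval includes 0. The call depended on the setting: the ratio was called lower with TMM scaling (−0.82) and at resolution 2 (−0.71). With 10% free RNA subtracted it was called higher (4.22), but the subtraction left none of the 7-day counts. A floor of 3 counts took their place, so 4.22 is no measure of a rise.

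The summed Sertoli markers were also lower in the older libraries, as given above: AMH, the hormone that removes the Müllerian ducts, stood at 2502, 1015, 983 and 163 CPM in Sertoli-like cells, and INHA, the inhibin alpha subunit, at 4134, 3393, 2195 and 582 CPM. Not all of them shared that course. GATM, an enzyme of creatine synthesis, was at 98.7, 110, 185 and 332 CPM. Sertoli-like cells with at least 2 of 6 cell cycle genes detected, called dividing here, were set against cells with none of them. They had somewhat less HSD17B3 at 7, 30 and 60 days. In order of age the log2 ratios were −0.31 (−0.34 to −0.27), −0.30 (−0.38 to −0.23), −0.25 (−0.36 to −0.15) and −0.07 (−0.17 to 0.04), the last with an interval that includes 0. Dividing cells were deeper, with a median of 7171 against 5131 UMIs at 7 days and 8105 against 1834 at 90 days, and the part of depth in these ratios was not tested. At 90 days 674 cells counted as dividing and 674 had none of the genes, while cluster 11, led by cell cycle genes, held 0 cells of that library. Whether those 674 cells were dividing was not tested.

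Among the 9210 genes with a symbol and at least 50 CPM in some class, TAF7L followed HSD17B3 most closely over the 51 sums of a class in a library, with a Pearson correlation of log2(CPM + 1) of 0.94. SERPINA5 (0.93), CLDN11 (0.91), SPOCK2 (0.91), BOD1L1 (0.90), DLL3 (0.90), FRMPD1 (0.90), KCNIP3 (0.90), CLU (0.88) and S100A1 (0.88) came next. CLDN11, a tight junction protein, is one of the Sertoli markers used for naming. These sums share libraries and free RNA, so the correlations are descriptions only.

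The other members were set against HSD17B3 in the same cells. At 7 days, Sertoli-like cells had 1 member called higher than in Leydig-like cells (HSD17B3) and 6 called lower, in a comparison in which 34.3% of all genes were called higher and 15.5% lower. The counts were the same at 30 days, 1 higher and 6 lower, against 32.4% and 16.1% of all genes. At 60 days 1 member was called higher and 5 lower, against 9.5% and 12.7% of all genes. At 90 days 2 members were called higher, HSD17B3 and HSD17B12, and 3 lower, HSD17B4, HSD17B8 and HSD17B11, against 18.5% and 14.5%. The share of members called lower was thus above that of all genes at each age, over 7 genes. In the test over the 4 libraries, HSD17B3 was higher and 5 members were lower at an adjusted p under 0.05, where 18.4% of all genes were called higher and 15.2% lower; all other genes, unlike the members, were open to the clustering that made the classes. The median log2 ratio of the 7 members was −1.08, −1.15, −0.97 and −0.54 at the 4 ages, and that of all genes compared was 0.58, 0.49, 0.19 and 0.21. TMM scaling moved these log2 ratios by −0.25, −0.16, 0.29 and 0.06.

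**Figure D3:**
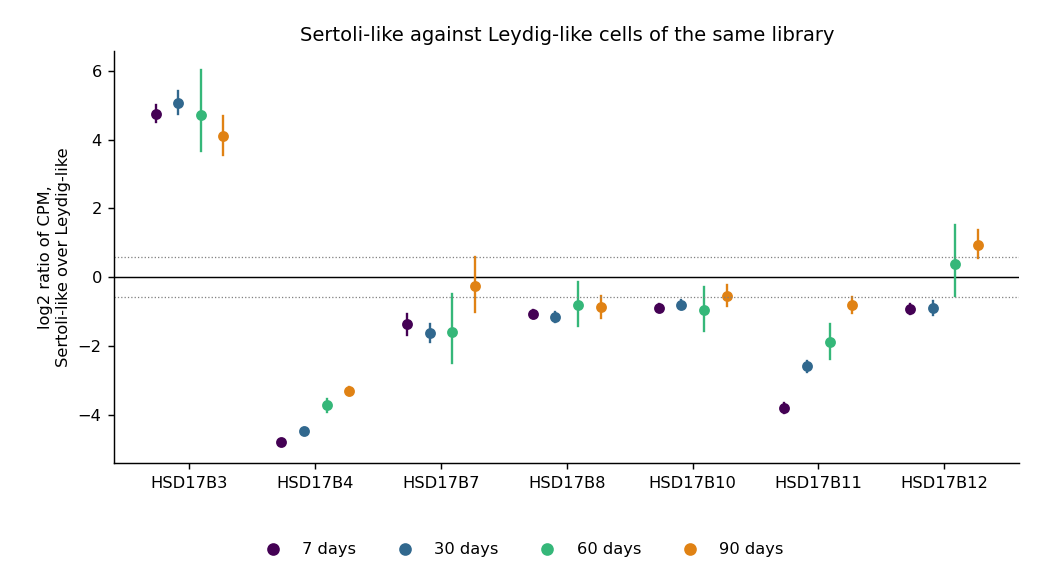
Log2 ratio of the CPM of each member in Sertoli-like over Leydig-like cells of the same library, by age; bars are exact 95% intervals from counting error and dotted lines mark 1.5-fold. HSD17B3 lies above 4 at every age, HSD17B4 below −3, and HSD17B12 changes side between 30 and 90 days.

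HSD17B4 went the opposite way to HSD17B3 between Sertoli-like and Leydig-like cells. In Leydig-like cells of the 4 libraries, youngest first, it stood at 1913 CPM (9172 counts), 1502 CPM (5041 counts), 969 CPM (275 counts) and 1192 CPM (1187 counts). In Sertoli-like cells its levels were 68.4, 67.8, 73.2 and 120.4 CPM. The Leydig-like level was 28.0-fold, 22.2-fold, 13.2-fold and 9.90-fold higher, with log2 ratios of Sertoli-like to Leydig-like cells of −4.81 (−4.87 to −4.75), −4.47 (−4.55 to −4.39), −3.73 (−3.92 to −3.53) and −3.31 (−3.42 to −3.20). Over the 4 libraries edgeR gave −4.24 ± 0.38 (SE; adjusted p = 0.00016), lower in 4 of 4. Only the Leydig-like class stood this high: the next class was pericyte or vascular smooth muscle-like cells at 7 and 30 days (86.6 and 79.1 CPM), cluster 25 at 60 days (130 CPM) and Sertoli-like cells at 90 days. HSD17B4 ranked 220 from the bottom of 17193 genes ordered by the ratio at 7 days, while HSD17B3 ranked 1840 from the top. Leydig-like cells held 68.2 and 63.8% of its UMIs at 7 and 30 days, and 10.6 and 26.4% at 60 and 90 days, when they were fewer. Its closest genes over the 51 sums were CYB5A (0.93), the cytochrome b5 that aids CYP17A1, NADK2 (0.88), the mitochondrial NAD kinase, and RDH11 (0.87), a retinol dehydrogenase.

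HSD17B11, the lipid droplet member, began far higher in Leydig-like cells, and the gap narrowed with age. Leydig-like cells had 181, 170, 123 and 163 CPM, and Sertoli-like cells had 13.0, 28.0, 33.1 and 92.3 CPM. The log2 ratio of Sertoli-like to Leydig-like cells was −3.80 (−3.96 to −3.64), −2.60 (−2.76 to −2.43), −1.90 (−2.39 to −1.36) and −0.82 (−1.05 to −0.57), again by age. The last of these missed the 1.5-fold threshold with no doublets removed (−0.58). Over the 4 libraries edgeR gave −2.46 ± 0.53 (SE; adjusted p = 0.0093). The Leydig-like levels lay within 123 to 181 CPM throughout, while the Sertoli-like level was higher at each later age.

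The remaining 4 members differed less. HSD17B8, of mitochondrial fatty acid synthesis, had 146, 154, 77.5 and 91.4 CPM in Leydig-like cells and 69.2, 69.1, 44.1 and 49.9 CPM in Sertoli-like cells, with log2 ratios of −1.08, −1.15, −0.81 and −0.87. HSD17B10 had 180, 149, 81.1 and 95.4 CPM in Leydig-like cells and 97.5, 85.7, 41.5 and 65.6 CPM in Sertoli-like cells. Both were higher in Leydig-like than in Sertoli-like cells in every library. The log2 ratio of HSD17B10 was −0.88 (−0.99 to −0.77) and −0.80 (−0.94 to −0.66) in the younger libraries. At 60 days it was −0.97 (−1.56 to −0.30), a call kept in 5 of the 11 other settings, and at 90 days it was −0.54 (−0.85 to −0.22), short of 1.5-fold. The call of HSD17B8 at 60 days was lost with no doublets removed (−0.58) and with TMM scaling (−0.52).

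HSD17B7, the cholesterol synthesis member, was the least counted. It had 24.2 CPM (116 counts), 51.5 CPM (173 counts), 35.2 CPM (10 counts) and 16.1 CPM (16 counts) in Leydig-like cells, against 9.35, 16.7, 11.8 and 13.4 CPM in Sertoli-like cells. The log2 ratios were −1.37 (−1.67 to −1.06), −1.63 (−1.88 to −1.36), −1.58 (−2.49 to −0.50) and −0.26 (−1.0 to 0.57). The first 3 were calls and the last was not, and that of 60 days was lost with a per-cell marker gate (−0.96). HSD17B12, of fatty acid elongation, was lower in Sertoli-like cells in the younger libraries and higher in the oldest: it had 92.4, 73.0, 31.7 and 54.2 CPM in Leydig-like cells and 48.7, 38.9, 41.2 and 104.6 CPM in Sertoli-like cells. Its log2 ratio was −0.92 (−1.07 to −0.77), −0.91 (−1.11 to −0.70), 0.38 (−0.56 to 1.51, on 9 Leydig-like counts) and 0.95 (0.56 to 1.37).

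Over the 4 libraries, edgeR's adjusted p was 0.0054 for HSD17B8 (log2 ratio −1.17 ± 0.22, SE), 0.0088 for HSD17B10 (−0.97 ± 0.21) and 0.010 for HSD17B7 (−1.44 ± 0.32), each lower in 4 of 4 libraries. HSD17B12, lower in 2 and higher in 2, did not pass (−0.41 ± 0.42, adjusted p = 0.48). Without the 30-day library HSD17B7 (adjusted p = 0.092) and HSD17B10 (0.075) no longer passed; the calls of HSD17B3, HSD17B4, HSD17B8 and HSD17B11 held without any 1 library.

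In Sertoli-like cells between 90 and 7 days, 3 members were called higher and 1 lower, where 41.8% of all genes were called higher and 16.3% lower, so the count of members is near the background. HSD17B11 stood out by size, 7.11-fold higher at 90 days with a log2 ratio of 2.83 (2.68 to 2.98), made of steps of 1.11, 0.24 and 1.48 between neighbouring ages. HSD17B12 was 2.15-fold higher (1.10, interval 1.01 to 1.202), and almost all of that lay between 60 and 90 days (1.34). HSD17B4 was 1.76-fold higher (0.82, interval 0.73 to 0.90), again between 60 and 90 days (0.72). HSD17B3 was the member called lower. HSD17B7 (0.52), HSD17B8 (−0.47) and HSD17B10 (−0.57) did not pass 1.5-fold. TMM scaling shifted this comparison by −0.55 on the log2 scale, and after it HSD17B12 (0.56) and HSD17B4 (0.27) were no longer called, whereas HSD17B10 (−1.12) and HSD17B8 (−1.02) were called lower; HSD17B11 stayed called, at 2.28. HSD17B4 also missed the threshold as a mean over cells (0.53).

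In Leydig-like cells between 90 and 7 days, 0 members were called higher and 4 lower, where 35.4% of all genes were called higher and 9.46% lower. HSD17B10 had a log2 ratio of −0.91 (−1.23 to −0.61), HSD17B12 −0.77 (−1.204 to −0.36), HSD17B4 −0.68 (−0.77 to −0.59) and HSD17B8 −0.68 (−1.01 to −0.36). HSD17B11 was at −0.15 (−0.40 to 0.09) and HSD17B7 at −0.59 (−1.44 to 0.17). These are ratios of 2 libraries in which the summed Leydig markers were also lower at 90 days. With a filter of 1000 genes per cell, the values of HSD17B4 (−0.54) and HSD17B8 (−0.53) fell short of 1.5-fold, and HSD17B12 did so with cells thinned to 2000 UMIs (−0.28) and with no doublets removed (−0.49). HSD17B4 also fell short with a per-cell marker gate (−0.54). HSD17B10 was called lower in all 11 settings. TMM scaling shifted this comparison by −0.60 on the log2 scale, and after it HSD17B11 (−0.755) and HSD17B7 (−1.19) were also called lower.

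**Figure D4:**
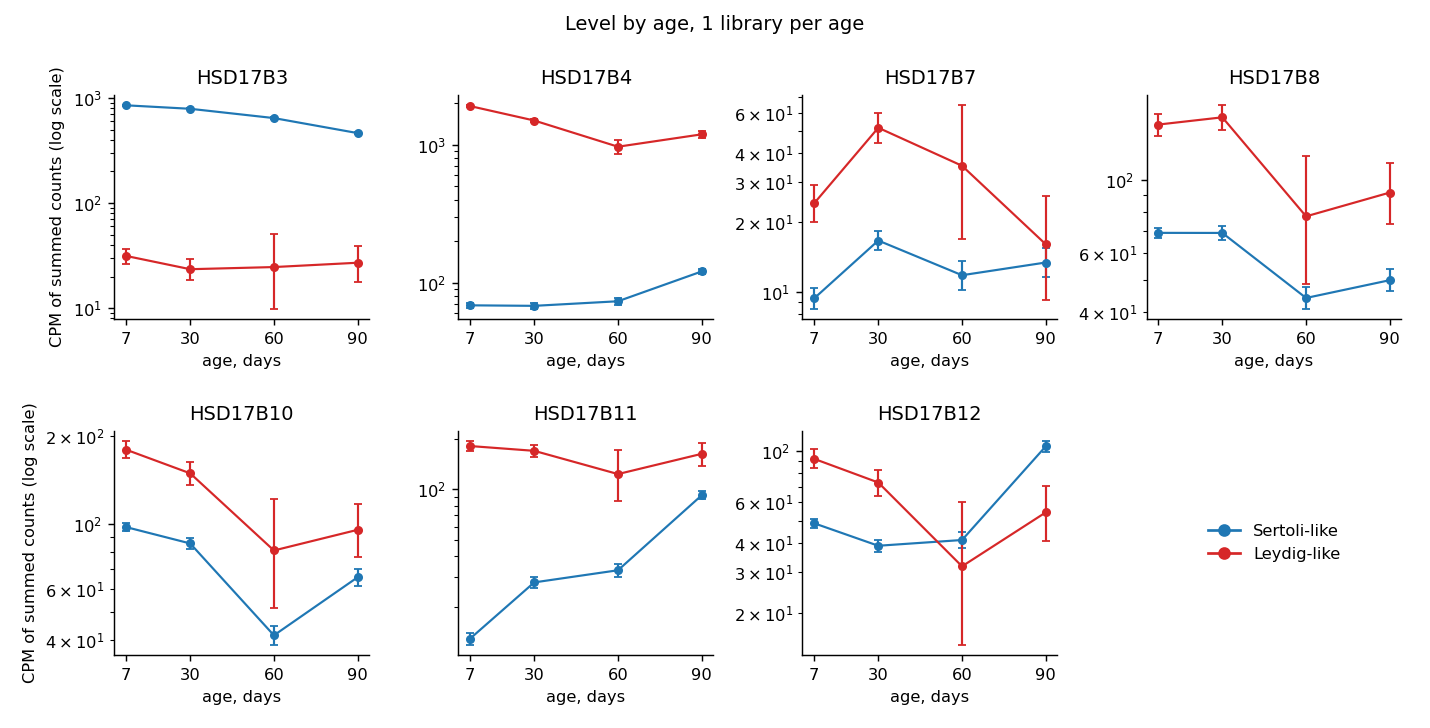
Level of each member in Sertoli-like and Leydig-like cells at 7, 30, 60 and 90 days, as CPM of summed counts (log scale, a separate axis per gene); each point is 1 library and bars are exact 95% Poisson intervals. The lines of HSD17B12 cross between 30 and 90 days and those of HSD17B11 approach each other, while HSD17B3 and HSD17B4 stay far apart on opposite sides.

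Germ cells had their own pattern, in which HSD17B10 and HSD17B11 went opposite ways; these contrasts were chosen after the classes had been seen. Germ cells whose stage was not resolved had 28.9 CPM of HSD17B10 at 7 days and 29.8 at 30 days. Spermatogonia-like cells had 160 and 164 CPM. The log2 ratios were −2.47 (−2.74 to −2.20) and −2.46 (−2.73 to −2.20). HSD17B11 had 78.3 and 115 CPM in the former against 20.9 and 31.5 CPM in the latter, with log2 ratios of 1.91 (1.60 to 2.22) and 1.87 (1.64 to 2.11). At 60 days, without a contrast, the same order was seen: HSD17B10 had 15.6 and 91.4 CPM and HSD17B11 112 and 37.5 CPM. Median depth in these classes was high, 12732 UMIs in unresolved germ cells and 26594 in spermatogonia-like cells at 7 days. Unresolved germ cells scored 1.61 for spermatogonia markers and 1.79 for spermatocyte markers, and spermatogonia-like cells 1.58 and 0.98. Which of these classes is the earlier stage was not tested. Of the 7 members, 2 were called higher (HSD17B7 and HSD17B11) and 3 lower (HSD17B8, HSD17B10 and HSD17B12) in unresolved germ cells at 7 days, where 48.1% and 10.8% of all genes were called. At 30 days 3 were called higher, HSD17B3 being added, and the same 3 lower, where 47.8% and 12% of all genes were called. HSD17B3 in both classes lay between 15.5 and 31.4 CPM at these 2 ages, below the T or NK-like level of the same library (52.1 and 51.2 CPM).

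The 90-day library was the only one with enough spermatocyte-like and spermatid-like cells, 1281 and 381. HSD17B11 reached its highest level of all there, 222 CPM (198 to 248) in spermatid-like cells, against 74.0 CPM in spermatocyte-like cells (log2 ratio 1.59, 1.36 to 1.81). HSD17B4 was lower in spermatid-like cells, 17.2 against 68.2 CPM (−1.99, −2.65 to −1.39), as was HSD17B8, 24.4 against 51.0 CPM (−1.07, −1.63 to −0.54). HSD17B3 was called higher, at 55.9 against 35.4 CPM, both of them below the 86.2 CPM of T or NK-like cells of that library. That is 2 members higher and 2 lower, where 16% and 37.8% of all genes were called. The unnamed cluster 8 of that library, 2190 cells led by germ line genes such as UCHL1, DMRT1 and SOHLH2, had 111 CPM of HSD17B10, 23.5 CPM of HSD17B11 and 23.5 CPM of HSD17B7, against 23.4, 74.0 and 8.02 CPM in spermatocyte-like cells. Against that cluster, 4 members were higher in spermatocyte-like cells (HSD17B3, HSD17B4, HSD17B8 and HSD17B11) and 3 lower (HSD17B7, HSD17B10 and HSD17B12), where 32.6% and 29.4% of all genes were called.

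**Figure D5:**
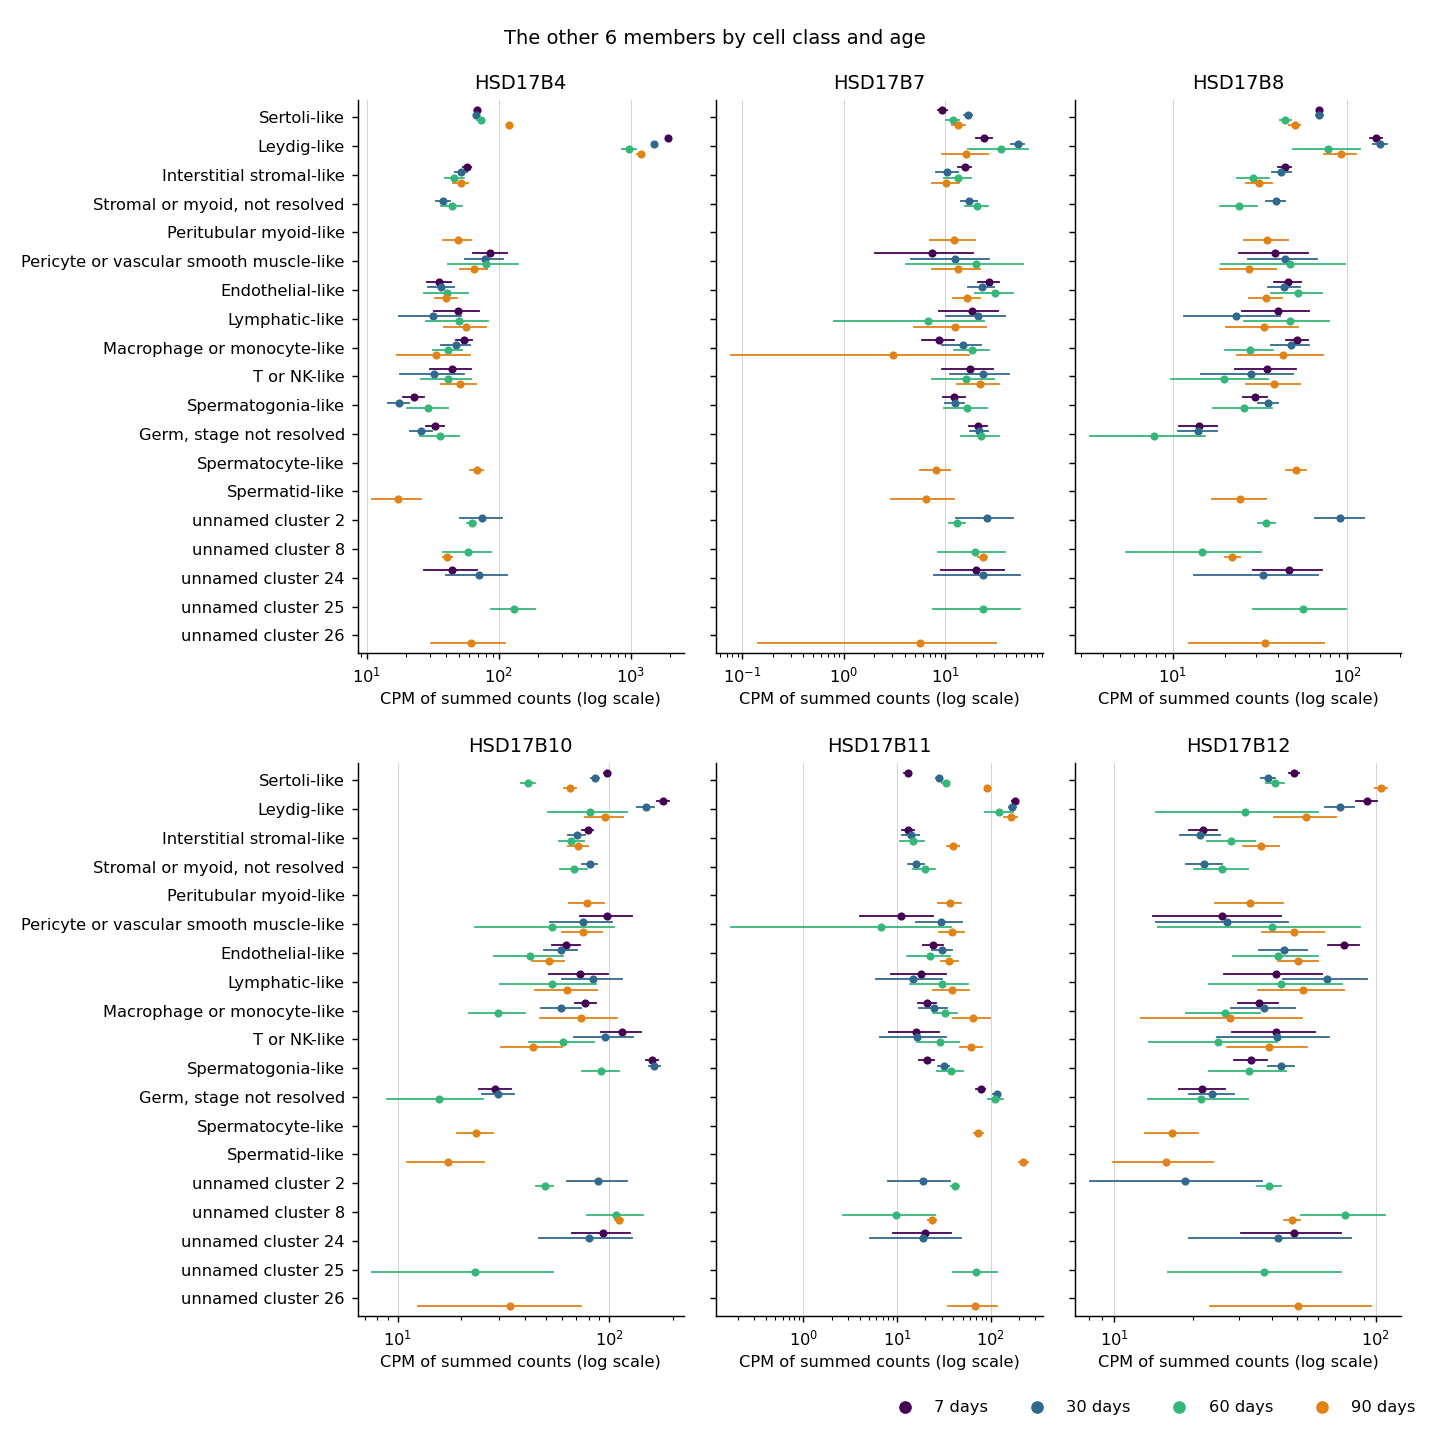
Level of HSD17B4, HSD17B7, HSD17B8, HSD17B10, HSD17B11 and HSD17B12 in each class with at least 50 cells, as CPM of summed counts (log scale, a separate axis per gene); points are libraries coloured by age and bars are exact 95% Poisson intervals. HSD17B4 is set apart in Leydig-like cells, HSD17B11 is highest in spermatid-like cells, and HSD17B10 is high in spermatogonia-like cells and low in unresolved germ cells.

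Over all 51 sums, HSD17B4 had the widest range of levels, 111-fold, and HSD17B12 the narrowest, 6.64-fold. HSD17B3 ranged 54.8-fold, HSD17B11 33.2-fold, HSD17B8 19.7-fold, HSD17B7 16.8-fold and HSD17B10 11.5-fold, with the low ends of HSD17B7 and HSD17B11 resting on a single count. HSD17B4, HSD17B7, HSD17B8 and HSD17B10 all had their highest level in Leydig-like cells, HSD17B12 in Sertoli-like cells at 90 days. The pair most alike over the sums was HSD17B4 and HSD17B8, with a Pearson correlation of 0.71; HSD17B3 and HSD17B4 gave 0.00. The genes most like HSD17B8 were TMEM205 (0.86), BCAT2 (0.82) and MSRB1 (0.77), those most like HSD17B10 were MRPL55 (0.87) and MRPS7 (0.84), 2 mitochondrial ribosomal proteins, and TSR3 (0.80). For HSD17B11 they were FAM222A, GRINA and AHCYL2 (0.74 to 0.72), for HSD17B12 MIF, C19orf53 and UQCC3 (all 0.64), and for HSD17B7 PLAA (0.59), LDHD (0.57) and ND2 (0.57).

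The pathways in which the members work were followed in lists of partner genes. Their counts stand beside the shares of all genes called: 34.3% higher and 15.5% lower in Sertoli-like than in Leydig-like cells at 7 days, and 18.5% and 14.5% at 90 days. Between 90 and 7 days these were 41.8% and 16.3% in Sertoli-like cells and 35.4% and 9.46% in Leydig-like cells. Of the genes of testosterone synthesis and its control, 15 could be compared between Sertoli-like and Leydig-like cells at 7 days, and Sertoli-like cells had 14 called lower and 1 called higher; their median log2 ratio was −4.15 (0.58 over all genes). Thus INSL3, the Leydig peptide hormone, had 581 against 45961 CPM, CYB5A 712 against 12664 CPM and CYP17A1, which makes androstenedione precursors, 89.6 against 12867 CPM. At 90 days 13 of 15 were called lower and 0 higher, and the median was −3.94 (0.21 over all genes). Of these 15 genes, 6 are Leydig markers that helped to name the class, INSL3 and CYP17A1 among them, so their direction was set by the naming. Of the other 9, 8 were lower and 1 higher at 7 days (median −2.48), and 7 lower and 0 higher at 90 days (median −3.04). In Leydig-like cells between 90 and 7 days, 6 of the 15 were lower and 1 higher, with INSL3 at −1.08 and CYP17A1 (−0.49) and CYB5A (−0.53) short of 1.5-fold.

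Of 12 late cholesterol synthesis genes, the pathway of HSD17B7, 11 were lower and 0 higher in Sertoli-like than in Leydig-like cells at 7 days (median −1.78). MSMO1, a sterol demethylation enzyme, had 89.8 against 393 CPM and SQLE, the squalene epoxidase, 71.6 against 120 CPM, whereas NSDHL had 79.3 against 60.1 CPM and was not called. At 90 days 5 were lower and 0 higher (median −0.44). Both this median and the ratio of HSD17B7 itself lay nearer 0 at 90 days; that difference was not tested. Within Sertoli-like cells 9 of the 12 were higher at 90 than at 7 days and 0 lower, with a median of 0.85 against 0.46 over all genes; MSMO1 was at 0.68, NSDHL at 0.91 and SQLE at 0.78. In Leydig-like cells 2 were higher and 4 lower, with MSMO1 at −1.03 and EBP, a sterol isomerase, at −2.46.

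Of 10 peroxisomal beta oxidation genes, the pathway of HSD17B4, 6 were called lower and 1 higher in Sertoli-like than in Leydig-like cells at 7 days (median −0.73). SCP2, the sterol carrier protein and thiolase, was at −0.96 and ACAA1, a thiolase, at −0.86. Neither came near the −4.81 of HSD17B4. EHHADH, the other bifunctional enzyme of the pathway, was at −3.07 and was named after its values were seen. At 90 days 4 were lower and 2 higher, SCP2 among the latter at 0.96. In Sertoli-like cells between 90 and 7 days 1 was higher and 1 lower, and in Leydig-like cells 2 were higher and 3 lower, with SCP2 at −1.83.

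Of 10 genes of very long chain fatty acid elongation, the pathway of HSD17B12, 5 were higher and 3 lower in Sertoli-like than in Leydig-like cells at 7 days (median 0.94), and of 8 compared at 90 days 3 were higher and 1 lower. ELOVL2, an elongase of polyunsaturated fatty acids, had 92.2 against 3.34 CPM at 7 days and 399 against 38.2 CPM at 90 days, while HACD3, a dehydratase, had 37.8 against 220 CPM at 7 days. Between 90 and 7 days in Sertoli-like cells, 4 of 10 were called higher and 4 called lower. Their median was −0.23, against 0.46 over all genes, and ELOVL2 stood at 2.11 and ELOVL5, another such elongase, at 2.65. In Leydig-like cells 2 of 9 were higher and 1 lower.

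The lists of the 3 remaining members were shorter. Of 7 mitochondrial fatty acid synthesis genes, set beside HSD17B8, Sertoli-like cells had 3 lower and 0 higher at 7 days, with CBR4, its partner subunit, at −1.67 and NDUFAB1, the acyl carrier protein, at −0.41 and not called. In Leydig-like cells 4 of the 7 were lower at 90 than at 7 days, among them NDUFAB1 (−0.95) and CBR4 (−1.14). Of 7 genes of mitochondrial RNase P and branched chain breakdown, set beside HSD17B10, Sertoli-like cells had 4 lower and 1 higher at 7 days; ECHS1, the crotonase, was at −2.04, BCAT2, the branched chain transaminase, at −1.98 and ACAT1, a thiolase, at 0.70. In Leydig-like cells 4 were lower and 1 higher at 90 days, ECHS1 at −1.65 and BCAT2 at −0.68. Of 8 lipid droplet genes, set beside HSD17B11, Sertoli-like cells had 4 lower and 2 higher at 7 days, with PLIN2, a droplet coat protein, at −1.36. Of 9 compared in Sertoli-like cells between 90 and 7 days, 4 were called higher and 0 lower (median 0.98), near the 41.8% of all genes called higher. The 3 most counted, PLIN2 (0.13), AUP1 (0.43) and PLIN3 (0.33), were not called.

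Among the other family symbols, HSD17B2, which oxidises testosterone back to androstenedione, was found in Leydig-like cells at 7 days at 37.5 CPM (180 counts), at 2.98 CPM (10 counts) at 30 days and at 0 counts at 60 and 90 days. Against the level that 3 counts would give in the class, the 7-day level was at least 3.55-fold higher than that of 60 days and at least 12.5-fold higher than that of 90 days. HSD17B6 was higher in Sertoli-like than in Leydig-like cells, at 12.7, 23.9, 5.81 and 31.4 CPM in Sertoli-like cells and 1.25, 2.09, 0 and 8.04 CPM in Leydig-like cells. Its log2 ratios were 3.35 (2.22 to 4.80), 3.52 (2.47 to 4.84) and 1.96 (0.97 to 3.19) at the ages of 7, 30 and 90 days. Unlike HSD17B3 it was not highest in Sertoli-like cells in every library: unresolved germ cells had 17.2 CPM (13.6 to 21.4) at 7 days and spermatogonia-like cells 11.9 CPM (6.33 to 20.3) at 60 days. HSD17B1, the oestrogen-forming enzyme, did not exceed 2.09 CPM in Sertoli-like or Leydig-like cells. Interstitial stromal-like cells had 6.33, 9.30, 9.04 and 11.9 CPM of it at the 4 ages (78, 58, 29 and 54 counts). Pericyte or vascular smooth muscle-like cells had 14.7 CPM at 7 days (8 counts), and peritubular myoid-like and spermatid-like cells had 10.1 and 11.5 CPM at 90 days (14 and 16 counts).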

How the data were processed

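The deposited files hold raw UMI counts per gene and barcode, made by the authors with Cell Ranger 5.0.1, per the file headers; bcl2fastq, Scanpy 1.7.1 and the pig genome Sscrofa11.1 are named in the submitters' processing notes, without their roles. The labels state 86453 captured cells, and the 4 deposited matrices held 69602 barcodes.

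Cells with at least 1000 UMIs, 500 genes and at most 15% mitochondrial UMIs were kept (55798). The expected share of doublets, 0.8% per 1000 cells, was then removed by highest Scrublet score (Scanpy 1.11.5), since its automatic threshold took 5.87, 10.0, 0 and 6.53% of cells and found none at 60 days. The remaining 49439 cells were clustered over all libraries on 2000 variable genes and 30 components with Leiden clustering (leidenalg 0.10.2, resolution 1), without the 7 members, and 30 clusters were named from 17 marker sets. A name needed at least 3 detected markers and score limits that were set after the data had been seen; 7 clusters stayed unnamed, and classes differ from any the study used. The free RNA in the counts was left in.

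Raw counts were summed per class and library. Intervals are exact Poisson (levels), exact conditional binomial (ratios) and Clopper-Pearson (shares) at 95%, from scipy 1.17.1, and were tested on simulated data. Intervals and floors of 3 counts cover counting error only. edgeR 4.0.16 gave TMM factors. Added after the data had been seen, its quasi-likelihood test took the 8 Sertoli-like and Leydig-like sums with the library as a block. It left 3 residual degrees of freedom, used filterByExpr, called at an adjusted p under 0.05 and was tested on simulated data. The SE beside its log2 ratios was worked back from the test, as the absolute log2 ratio over the square root of the F statistic. All 7 members are described; of each partner list at most 3 genes per contrast are named, those with the most counts; 1 gene that this rule takes is not reported here. The members and lists were chosen with earlier results of these data known, and the classes' names and germ cell contrasts with the classes in view. The sequences of these genes were not used here.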

Additional observations from a re-analysis of the deposited data

Results flagged for a closer look

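HSD17B4 and HSD17B12 were singled out because they went opposite ways with age in the 2 main classes. Between 7 and 90 days, the log2 ratio of HSD17B4 was 0.82 among Sertoli-like and −0.68 among Leydig-like cells. That of HSD17B12 was 1.10 and −0.77. With TMM scaling the Sertoli-like ratios were 0.27 for HSD17B4 and 0.56 for HSD17B12, and neither was called. The Leydig-like call of each gene held in 9 of the 11 other settings. With 1 library per age, the difference between the classes was not tested.

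HSD17B3 was also present in clusters that no comparison used. The unnamed cluster 2 had 482 CPM at 30 days (62 cells) and 341 CPM at 60 days, where it held 4551 cells, 42.0% of those used, at a median of 1488 UMIs. It was led by AZU1, PRTN3 and HOOK2, and neutrophil markers scored highest in it, Sertoli markers next. The Sertoli markers stood there at a median of 55.5% of their Sertoli-like level at 60 days, with HSD17B3 at 52.9%. The unnamed cluster 25 of the 60-day library had 303 CPM (110 cells), with HSD17B3 at 47.0% and the Sertoli markers at a median of 70.8% of the Sertoli-like level, beside CYP17A1, CYP11A1 and INSL3 among its leading genes. The part of free RNA and of droplets with more than 1 cell in these clusters was not tested.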

How the results depend on the processing

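The test over the 4 libraries, with the library as a replicate block, was added after the data had been seen. In it the log2 ratio of HSD17B3 was 4.39 to 4.60 with each library left out in turn, 4.67 when scaled by summed counts in place of TMM factors and 4.45 without the replicate block. Without the block HSD17B10 no longer passed (adjusted p = 0.099), which changed no other member's call, and 14.5% of genes were called higher and 11.9% lower. Without the 30-day library 9.72% and 7.26% were. Within the libraries, HSD17B3 was called higher in Sertoli-like than in Leydig-like cells at each age under all 11 other settings. Its log2 ratio at 7 days moved to 4.11 with Scrublet's automatic threshold, 3.60 with no doublets removed, 4.32 at resolution 2, 4.49 with cells thinned to 2000 UMIs, 4.50 with TMM factors and, as a lower bound, 10.3 with 10% free RNA subtracted. At 30 days these were 4.57 with the automatic threshold, 3.28 with no doublets removed, 4.65 at resolution 2 and a bound of 9.72 with free RNA subtracted. At 60 days they were 2.36, 2.18 and 2.18 for the automatic threshold, no doublets removed and resolution 2, and 1.92 when the library was clustered alone. At 90 days they were 3.51, 3.18 and 5.26 for the automatic threshold, no doublets removed and free RNA subtracted. The bounds of 10.3 at 7 days and 9.72 at 30 days are not measured ratios. The subtraction left no Leydig-like counts at those ages, and the floor of 3 counts took their place.

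Between 90 and 7 days in Sertoli-like cells, HSD17B3 was called lower in all 11 settings, at −0.96 with the stricter cell filter, −0.97 at resolution 0.5, −1.03 as a mean over cells, −0.80 with thinned cells and −1.43 with TMM factors. In Leydig-like cells it was at 4.22 with free RNA subtracted, a value set by the floor of 3 counts put in place of its removed 7-day counts. The other members called lower in Sertoli-like than in Leydig-like cells at 60 days dropped from 5 to 3 with no doublets removed and to 3 with the per-cell marker gate. Those called higher in Sertoli-like cells at 90 days went from 3 to 1 with TMM factors. Those called lower there went from 0 to 1 at resolution 0.5, as a mean over cells and with free RNA subtracted, and to 2 with thinned cells and with TMM factors. Those called lower in Leydig-like cells at 90 days went from 4 to 2 with the stricter cell filter, and the share of all genes called lower there was 5.97% with a minimum of 1 count. With TMM factors HSD17B7 and HSD17B11 were called lower there as well.

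Shares of cells with an HSD17B3 UMI depend on depth by construction. Thinned to 1000 UMIs, they were 56.7, 55.4, 48.8 and 33.8% in Sertoli-like cells at the 4 ages and 2.31% in Leydig-like cells at 7 days. Without thinning they were 96.8, 91.8, 90.3 and 70.7% in Sertoli-like cells, and 20.4, 11.03 and 9.19% in Leydig-like cells at 7, 30 and 90 days. Where no cause is given, the cause was not tested. The 72 Leydig-like cells at 60 days limit every ratio at that age. For TMM factors and for the mean over cells, calls used the reported interval moved along with the ratio. The mean over cells had no interval of its own. No member called in the reported setting took the opposite call in another. HSD17B3 between 90 and 7 days in Leydig-like cells, not called as reported, was called lower in 2 settings and higher in 1. The latter was the setting with free RNA subtracted, where the floor of 3 counts stood in for the removed 7-day counts.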
